A study of Mus musculus with 4 samples.

Results

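The axon guidance ligands and receptors of mouse medulloblastoma were examined, gene by gene, in the 3 main classes of tumour cells. The genes were chosen by family name: all rows of the count tables for semaphorins of classes 3 to 7, plexins, neuropilins, Eph receptors, ephrins, Robo receptors, Slits, netrins, Unc5 receptors and Dcc. This gave 56 genes of 15002, 29 of them ligands and 27 receptors. The rule for the genes uses names and no measured values. Levels were taken from Drop-seq, a method that captures a cell and a barcoded bead in a shared droplet and counts the 3′ ends of its polyadenylated RNA as unique molecular identifiers (UMIs). The 4 samples were tumours 1 to 4, 1 untreated mouse each at postnatal day 16. All mice carried hGFAP-Cre, the SmoM2 allele and floxed alleles of Prkaa1 and Prkaa2, the genes of both catalytic alpha subunits of the energy sensor AMPK. SmoM2 is an activated form of Smoothened, so the tumours are driven by Sonic hedgehog (SHH) signalling, and both it and the deletions are limited to cells with Cre activity, past or present, under the human GFAP promoter, which is active in many neural progenitors and in astrocytes. All labelled samples are of this genotype, so what is described here is the pattern within AMPK-deleted tumours, and tumours with intact Prkaa1 and Prkaa2 were not analysed here.

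Axon guidance cues are secreted or membrane-bound proteins that attract or repel growing axons and migrating cells. Semaphorins act through plexins, in part with neuropilins as co-receptors, ephrins through Eph receptor tyrosine kinases, Slits through Robo receptors, and netrins through Dcc and the Unc5 family. Several of these are also signals between membranes, and in the cerebellum they take part in the passage of granule neuron progenitors from the outer germinal layer, where they divide, to the inner granule layer, where they settle as neurons. SHH medulloblastoma arises from these progenitors, and its cells range from dividing progenitors to differentiating granule neurons.

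Barcodes with at least 500 UMIs numbered 766, 807, 566 and 1083 in tumours 1 to 4 and held 766276, 723661, 528971 and 1253618 UMIs. Cells were sorted into classes by UMIs of 40 genes of cell division and 25 neuronal genes, none of them a guidance gene, after each cell had been thinned to 500 UMIs. Dividing cells had at least 5 UMIs of the division list and at least 2 times as many as of the neuronal list, neuronal cells the reverse, and non-dividing cells fewer than 5 of either. Over the 4 tumours there were 1146 dividing cells (35.2% ± 2.90 of a tumour's cells, SD, n = 4), 803 non-dividing cells (24.7% ± 3.29) and 943 neuronal cells (29.9% ± 4.20). A further 229 cells were mixed and 101 carried markers of other cell types, and both were left out of the comparisons. Of the 3121 cells sorted by the 2 lists, 472 lay within 1 UMI of the threshold, and whether the classes are separate types or ranges of a course was not tested. Levels are given as counts per 1000000 UMIs (CPM) of a class in a tumour, which ranged from 132665 to 586148 UMIs. Because a library's UMIs set its precision, a level of a few CPM rests on 1 or 2 molecules.

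The division list summed to 25824 CPM in dividing, 4472 in non-dividing and 2476 in neuronal cells on average, and the neuronal list to 4599, 4413 and 21162. Granule-lineage progenitor markers (13 genes, among them Atoh1, Gli1 and Ptch1) summed to 5538, 5774 and 4496 CPM. Of these, Atoh1 (89.9 against 159 CPM) and Barhl1 (382 against 577 CPM) were lower in dividing than in non-dividing cells (edgeR adjusted p = 0.0230 and 0.00700). In neuronal cells Atoh1, Gli1 and Ptch1 averaged 28.1, 28.5 and 8.06 CPM, against 89.9, 185 and 32.9 in dividing cells, while Zic1 averaged 1727 CPM against 894. Of a longer list for unipolar brush and nuclear glutamatergic neurons, 4 markers were in the tables, none at 0 in any class. Their sum ranged from 76.1 to 283 CPM in dividing, 94.2 to 501 in non-dividing and 358 to 903 in neuronal cells. Of a longer list for GABAergic interneurons, only 3 markers were in the tables, also none at 0. Their sum ranged from 396 to 651, 384 to 853 and 696 to 1047 CPM. The other markers of both lists had no row and could not be counted. The part of these other neurons in the results was not tested. Over 9217 genes the profiles of tumours 1 and 2 correlated at 0.93 and those of tumours 3 and 4 at 0.93, against 0.69 to 0.80 between the pairs, so tumours 1 and 2 stood apart from 3 and 4. Mitochondrial RNA took 9.90% to 16.5% of the UMIs of the 3 classes in tumours 1 and 2 and 1.93% to 2.82% in tumours 3 and 4. Its share was highest in non-dividing cells in every tumour, at 16.5%, 15.5%, 2.82% and 2.41% in tumours 1 to 4, against 9.90%, 11.2%, 2.77% and 2.14% in neuronal cells. The labels give no batch. Prkaa1 had 16, 4, 3 and 5 UMIs and Prkaa2 10, 5, 10 and 14 in tumours 1 to 4. A 3′ count can come from RNA of a deleted allele, so these counts do not check the deletion.

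Of the 56 genes, 28 had at least 30 UMIs over the 12 sums of 3 classes and 4 tumours and were tested. The other 28 had 0 to 29 UMIs. Among the genes called below, Unc5c, Sema4g and Ephb1 reached 30 UMIs only with neuronal cells, which held 32 of 37, 37 of 53 and 57 of 70. Nrp1 reached it only with dividing cells, which held 31 of 46. For these genes the limit was met through the class in which they were high. The tested genes were 14 ligands and 14 receptors: 8 of 18 semaphorins, 5 of 8 plexins, 1 of 2 neuropilins, 4 of 8 Eph receptors, 4 of 7 ephrins, 2 of 4 Robo receptors, 2 of 3 netrins and 2 of 5 netrin receptors, while the only Slit in the tables, Slit2, was under the limit with 14 UMIs. Each was tested with edgeR's quasi-likelihood test on the summed counts, with the tumour as a block and Benjamini-Hochberg adjustment over all genes fitted.

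Neuronal cells differed from dividing cells in 12 of the 28 genes at an adjusted p under 0.05, 8 higher and 4 lower. The split was 9 and 2 under upper-quartile scaling, with library totals and with mitochondrial rows left out, and 7 and 1 with DESeq2. Over all 9156 genes the share called was 27.5% (12.3% higher and 15.2% lower). Higher in neuronal cells were the ligands Sema6a, Sema4g, Sema6d and Ntn4 and the receptors Plxna2, Ephb1, Ephb2 and Unc5c. Lower were the ligands Sema7a and Ntn1 and the receptors Nrp1 and Plxnb2. The median log2 difference was 0.22 over the 28 genes and -0.05 over all genes. In 10 of the 28 the 4 neuronal values did not overlap the 4 dividing values, against 15% of all genes.

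Against non-dividing cells, neuronal cells differed in 7 of the 28, with a share of 15.6% over all genes (7.43% higher and 8.21% lower). All 7 were among the 12 and moved the same way: Sema6a, Sema4g, Plxna2, Ephb1, Ephb2 and Unc5c were higher, and Sema7a was lower. In 5 of the 28 the groups did not overlap, against 8.85% of all genes. The neuronal sums serve in both comparisons, so the second does not repeat the first independently. Between dividing and non-dividing cells none of the 28 was called by edgeR, none had an unadjusted p under 0.05, and DESeq2 called none either, while 4.53% of all genes were called (3.45% higher and 1.08% lower in dividing cells). The point estimates of that comparison ran from -1.11 for Sema4g to 0.79 on the log2 scale. For genes with few UMIs its intervals are wide: for Unc5c it reached from -2.56 to 2.16, whereas for Sema6a it reached from -0.56 to 0.32.

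**Figure D1:**
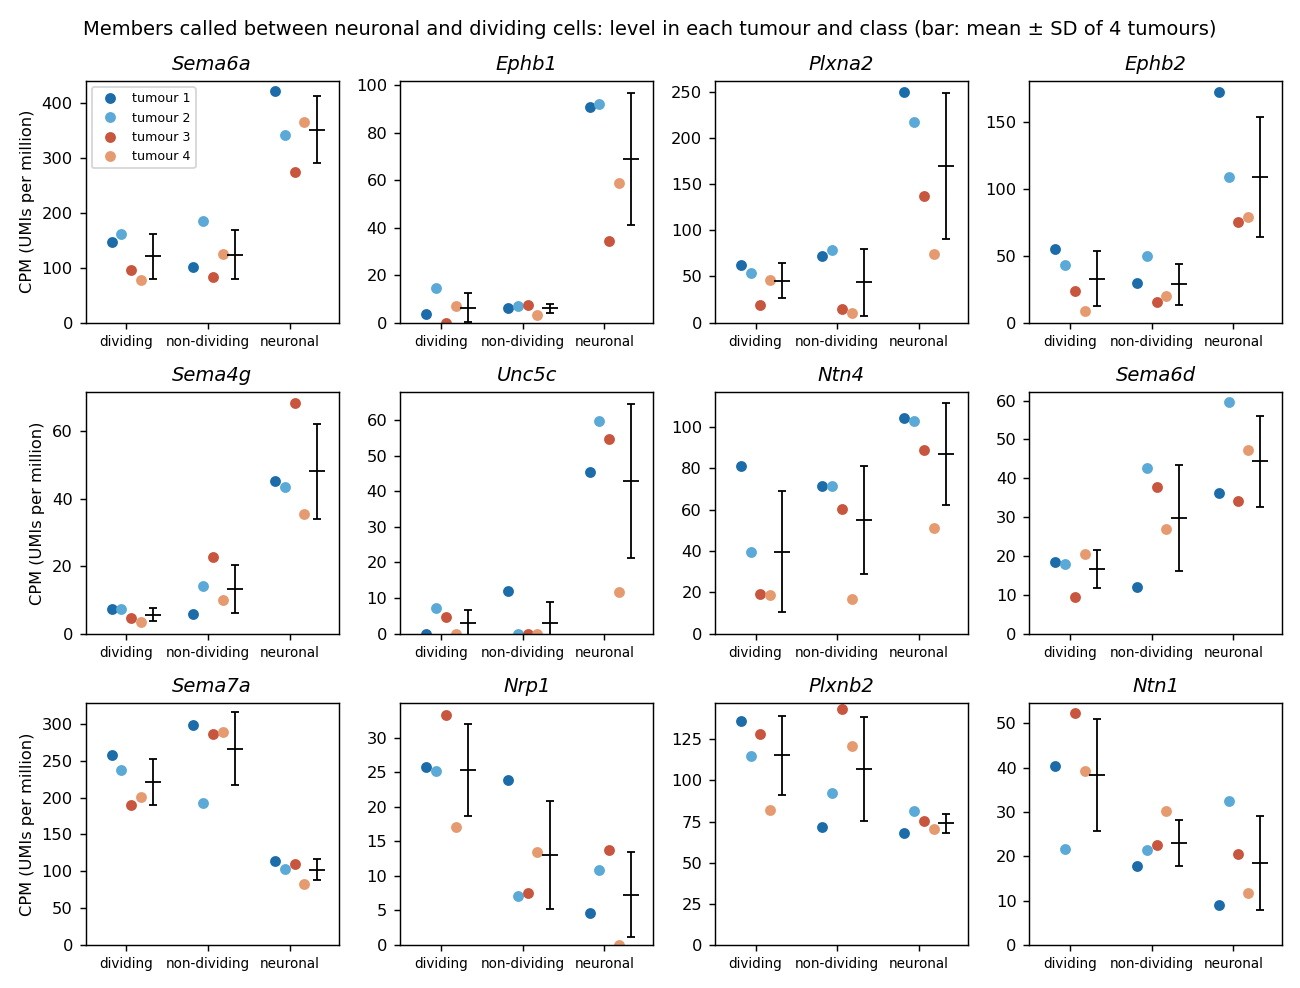
Level of the 12 called genes in dividing, non-dividing and neuronal cells, in counts per 1000000 UMIs on a linear axis that starts at 0; each point is 1 tumour, and the black mark and bar are the mean and SD of the 4 tumours (parts of a bar below 0 are not drawn). Neuronal values of Sema6a lie at 274 to 422 CPM, above every value of the other classes, and those of Sema7a at 82.5 to 113 CPM, below every value of the other classes.

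The sequences just upstream of 3 of the 7 genes called in both comparisons are shown because they hold an E-box, the CANNTG core bound by basic helix-loop-helix factors such as Atoh1 in progenitors and Neurod1 in granule neurons. Each runs from 250 bases before to 50 bases after the RefSeq start, 5′ to 3′ on the gene's strand, with the E-box in capitals. They are Ephb2 at chr4:136835963-136836262 on the minus strand, Sema4g at chr19:44989094-44989393 on the plus strand and Sema7a at chr9:57939862-57940161 on the plus strand of GRCm38.p6.
Ephb2: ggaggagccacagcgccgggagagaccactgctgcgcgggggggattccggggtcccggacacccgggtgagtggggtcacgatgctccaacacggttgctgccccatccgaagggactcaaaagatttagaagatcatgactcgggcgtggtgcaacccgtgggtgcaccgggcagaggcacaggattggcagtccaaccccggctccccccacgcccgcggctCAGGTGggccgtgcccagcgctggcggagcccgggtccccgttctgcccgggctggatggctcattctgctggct
Sema4g: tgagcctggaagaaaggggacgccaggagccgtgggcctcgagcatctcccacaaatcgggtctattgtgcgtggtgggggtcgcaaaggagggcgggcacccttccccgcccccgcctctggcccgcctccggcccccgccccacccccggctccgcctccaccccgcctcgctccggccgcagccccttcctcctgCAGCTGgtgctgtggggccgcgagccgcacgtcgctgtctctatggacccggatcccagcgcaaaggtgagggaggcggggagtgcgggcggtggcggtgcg
Sema7a: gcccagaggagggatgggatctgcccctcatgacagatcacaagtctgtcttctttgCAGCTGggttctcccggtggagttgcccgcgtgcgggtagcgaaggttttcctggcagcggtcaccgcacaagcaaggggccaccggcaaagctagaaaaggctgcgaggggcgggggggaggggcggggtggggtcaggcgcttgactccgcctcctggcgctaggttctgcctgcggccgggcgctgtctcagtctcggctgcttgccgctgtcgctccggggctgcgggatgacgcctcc

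The core begins 25 bases before the start in Ephb2 (CAGGTG), 52 before it in Sema4g (CAGCTG) and 193 before it in Sema7a (CAGCTG). Of the 7 genes, 6 were examined, and 3 held no CANNTG in this window (Ephb1, Plxna2 and Unc5c). Of all 32851 RefSeq windows of this length, 72.3% held it, so the core is common to most promoters. The motif was searched after 2 more specific ones gave no match in these 6 windows: CAGATG, itself an E-box and present in 17.2% of all windows, and the Gli core GACCACCCA, present in 0.253%. All 3 were searched on both strands. No match says only that these letters are not in this window, and the 3′ counts do not show which start a transcript used.

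The ligand Sema6a, a membrane-bound semaphorin that binds class A plexins and takes part in the inward migration of granule cells, was high in neuronal cells of every tumour. Its level in neuronal cells was 422, 342, 274 and 366 CPM in tumours 1 to 4. In dividing cells it was 147, 162, 95.2 and 76.8 CPM, and in non-dividing cells 101, 185, 82.9 and 124 CPM. The lowest neuronal value exceeded the highest value of the other classes. On the log2 scale the difference was 1.57 (SE 0.18, edgeR adjusted p = 7.79e-11) from dividing and 1.45 (SE 0.20, edgeR adjusted p = 5.82e-08) from non-dividing cells. From dividing cells it was 1.30 in tumours 1 and 2 alone and 2.04 in tumours 3 and 4 alone.

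Sema7a, a GPI-anchored semaphorin that signals through integrins and plexin C1, had the opposite pattern. Neuronal cells held 113, 103, 109 and 82.5 CPM, a mean of 102 ± 13.7 (SD, n = 4). Dividing cells held 258, 237, 190 and 201 CPM, and non-dividing cells 298, 192, 286 and 289 CPM. Neuronal cells were low in all 4 tumours, and their values did not overlap those of the other classes. The fitted log2 difference was -1.20 (SE 0.20, edgeR adjusted p = 1.29e-06) from dividing and -1.48 (SE 0.21, edgeR adjusted p = 5.99e-08) from non-dividing cells. Over whole tumours it varied little, from 182 to 209 CPM. Plxnc1, the plexin that binds Sema7a, was not called: its mean was 111 ± 56.8 CPM in dividing, 100 ± 48.9 in non-dividing and 88.6 ± 31.7 in neuronal cells, with a log2 interval of -0.76 to 0.17 for neuronal against dividing.

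Sema4g, a class 4 transmembrane semaphorin expressed in the cerebellum, was counted in neuronal cells at 45.4, 43.4, 68.4 and 35.4 CPM. Dividing cells held 7.36, 7.20, 4.76 and 3.41 CPM, which is 7 UMIs in all, and non-dividing cells 5.96, 14.2, 22.6 and 10.1 CPM, which is 9 UMIs. All neuronal values were above all others. The log2 difference was 2.89 (SE 0.53, edgeR adjusted p = 1.15e-05) from dividing and 1.78 (SE 0.53, edgeR adjusted p = 0.0121) from non-dividing cells. The second call was kept in 11 of the 18 other settings in which the gene was tested, the first in all 18.

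Sema6d, a class 6 semaphorin that binds plexin A1, had 36.3, 59.7, 34.2 and 47.2 CPM in neuronal cells against 18.4, 18, 9.52 and 20.5 in dividing cells, with no overlap (log2 difference 1.27, SE 0.41, edgeR adjusted p = 0.0139). That call was lost in 6 of 21 other settings, among them DESeq2, the fit without tumour 2, tumours 1 and 2 alone (edgeR adjusted p = 0.112) and tumours 3 and 4 alone (edgeR adjusted p = 0.0748). Non-dividing cells lay across both, at 11.9 to 42.7 CPM, and neuronal cells were not called against them (log2 difference 0.58, edgeR adjusted p = 0.405). The remaining semaphorins tested were not called. Sema6c, of the same class, had 195, 119, 6.84 and 62.9 CPM in neuronal and 121, 133, 19.0 and 22.2 CPM in dividing cells, so its tumours differed more than its classes. Sema4c stood at 28.1 ± 21.0 CPM in neuronal and 27.5 ± 5.26 in dividing cells. Sema4b and Sema3e, the latter the ligand of plexin D1, had 37 and 42 UMIs in all, and their log2 differences from dividing cells, -0.31 and -0.96, had SEs of 0.66 and 0.69.

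Among the plexins, the receptors of the semaphorins, Plxna2 was the gene called in both comparisons. It binds Sema6a, and its loss disturbs granule cell migration in mice. Neuronal cells held 250, 217, 137 and 74.7 CPM. Dividing cells held 62.5, 54.0, 19.0 and 46.1 CPM and non-dividing cells 71.5, 78.4, 15.1 and 10.1 CPM. Within each tumour the neuronal value was the highest, while across tumours the neuronal value of tumour 4 fell below the non-dividing value of tumour 2. Neuronal cells differed by a log2 of 1.65 (SE 0.26, edgeR adjusted p = 4.07e-07) from dividing and 1.96 (SE 0.31, edgeR adjusted p = 1.34e-06) from non-dividing cells. From non-dividing cells it was 1.53 in tumours 1 and 2 alone and 3.09 in tumours 3 and 4 alone.

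Plxnb2, a receptor of class 4 semaphorins that granule progenitors require for orderly proliferation and migration, was lower in neuronal cells. It stood at 68.1, 81.4, 75.2 and 70.8 CPM there and at 136, 115, 128 and 81.9 CPM in dividing cells, a narrow gap in which the highest neuronal and the lowest dividing value nearly met. On the log2 scale the difference was -0.65 (SE 0.25, edgeR adjusted p = 0.0389), and the call was kept in 6 of 22 other settings. Plxna3, a class A plexin that works with neuropilins, lay just outside the threshold (log2 difference 1.19, SE 0.47, edgeR adjusted p = 0.0502) and was called in 7 of 19 other settings. Plxnb1, a receptor of Sema4d, was not called, at 47.4 ± 25.4 CPM in neuronal and 54.2 ± 51.9 in dividing cells.

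The co-receptor Nrp1, which binds class 3 semaphorins and vascular endothelial growth factor, was lower in neuronal cells, at 4.54, 10.8, 13.7 and 0 CPM against 25.8, 25.2, 33.3 and 17.1 CPM in dividing cells. The neuronal values rest on 5 UMIs. The fitted log2 difference was -1.95 (SE 0.66, edgeR adjusted p = 0.0188). Neuronal and non-dividing cells were not called apart (edgeR adjusted p = 0.376). The call against dividing cells was lost in 5 of 19 other settings, among them those without tumour 1 and without tumour 4.

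Eph receptors are tyrosine kinases that answer to ephrins on neighbouring cells. The B-type receptors Ephb1 and Ephb2 were higher in neuronal cells. Ephb1 was at 90.7, 92.2, 34.2 and 59 CPM in neuronal cells, 3.68, 14.4, 0 and 6.82 in dividing cells and 5.96, 7.12, 7.54 and 3.36 in non-dividing cells. Those values rest on 57, 9 and 4 UMIs, and no neuronal value overlapped the others. The log2 difference was 3.23 (SE 0.46, edgeR adjusted p = 3.80e-08) from dividing and 3.47 (SE 0.57, edgeR adjusted p = 2.89e-06) from non-dividing cells. Pooled over tumours, the level in neuronal cells was 10.6 times that in dividing cells, with an exact 95% interval of 5.20 to 24.3 that covers counting error only.

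Ephb2 was at 172, 108, 75.2 and 78.6 CPM in neuronal cells. It was at 55.2, 43.2, 23.8 and 8.53 CPM in dividing cells and at 29.8, 49.9, 15.1 and 20.2 CPM in non-dividing cells, again without overlap. Neuronal cells differed by a log2 of 1.82 (SE 0.30, edgeR adjusted p = 1.51e-06) from dividing and 1.84 (SE 0.35, edgeR adjusted p = 5.30e-05) from non-dividing cells. The A-type receptors tested, Epha5 and Epha7, were not called. Epha7 stood at 16.1 ± 8.23 CPM in neuronal and 31.5 ± 17.4 in dividing cells (log2 difference -1.15, SE 0.48, edgeR adjusted p = 0.0669). Whether the A-type and B-type receptors differ from each other in this was not tested. Of the ephrins, the ligands of these receptors, Efna2, Efna4, Efnb1 and Efnb2 had 30 to 55 UMIs each, and none was called in either neuronal comparison. Their log2 differences from dividing cells were 0.73, 1.29, -1.0 and 1.17, with SEs of 0.58 to 0.67.

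Of the netrins and their receptors, Unc5c, a repulsive netrin receptor whose loss misplaces granule cells, was counted almost wholly in neuronal cells. It had 10, 11, 8 and 3 UMIs there in tumours 1 to 4, 0, 2, 1 and 0 in dividing cells, and 2, 0, 0 and 0 in non-dividing cells. The neuronal levels were 45.4, 59.7, 54.7 and 11.8 CPM, so tumour 4 was low. On the log2 scale the difference was 3.64 (SE 0.70, edgeR adjusted p = 2.35e-05) from dividing and 3.44 (SE 0.81, edgeR adjusted p = 0.00104) from non-dividing cells, values that depend on the small constant added to counts near 0. The pooled level was 17.8 times that in dividing cells (exact 95% interval 5.58 to 91.0) and 14.7 times that in non-dividing cells (3.74 to 126).

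Dcc, the receptor through which netrins attract, was not called. It stood at 104, 103, 95.8 and 82.5 CPM in neuronal, 69.9, 112, 28.5 and 76.8 in dividing and 71.5, 121, 30.2 and 53.8 in non-dividing cells. The log2 interval for neuronal against dividing cells was -0.19 to 0.81. The ligand Ntn4, a secreted netrin-related protein of basement membranes, was at 104, 103, 88.9 and 51.1 CPM in neuronal and 80.9, 39.6, 19.0 and 18.8 CPM in dividing cells. It was higher in neuronal cells within every tumour although the groups overlapped (log2 difference 1.07, SE 0.30, edgeR adjusted p = 0.00456). In tumours 1 and 2 alone the difference was 0.77 and not called (edgeR adjusted p = 0.163), and in tumours 3 and 4 alone it was 1.70 (edgeR adjusted p = 0.00354).

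The ligand Ntn1, the netrin that signals through Dcc and Unc5 receptors, was at 9.07, 32.5, 20.5 and 11.8 CPM in neuronal and 40.5, 21.6, 52.3 and 39.2 CPM in dividing cells. It was lower in neuronal cells in 3 of 4 tumours and higher in tumour 2. The fitted log2 difference was -1.15 (SE 0.45, edgeR adjusted p = 0.0457), and the call was kept in 7 of 21 other settings. The receptors of Slits, Robo1 and Robo2, were not called. Robo2 was at 145, 136, 82.1 and 70.8 CPM in neuronal and 162, 130, 33.3 and 61.4 in dividing cells (log2 difference 0.13, interval -0.35 to 0.60).

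**Figure D2:**
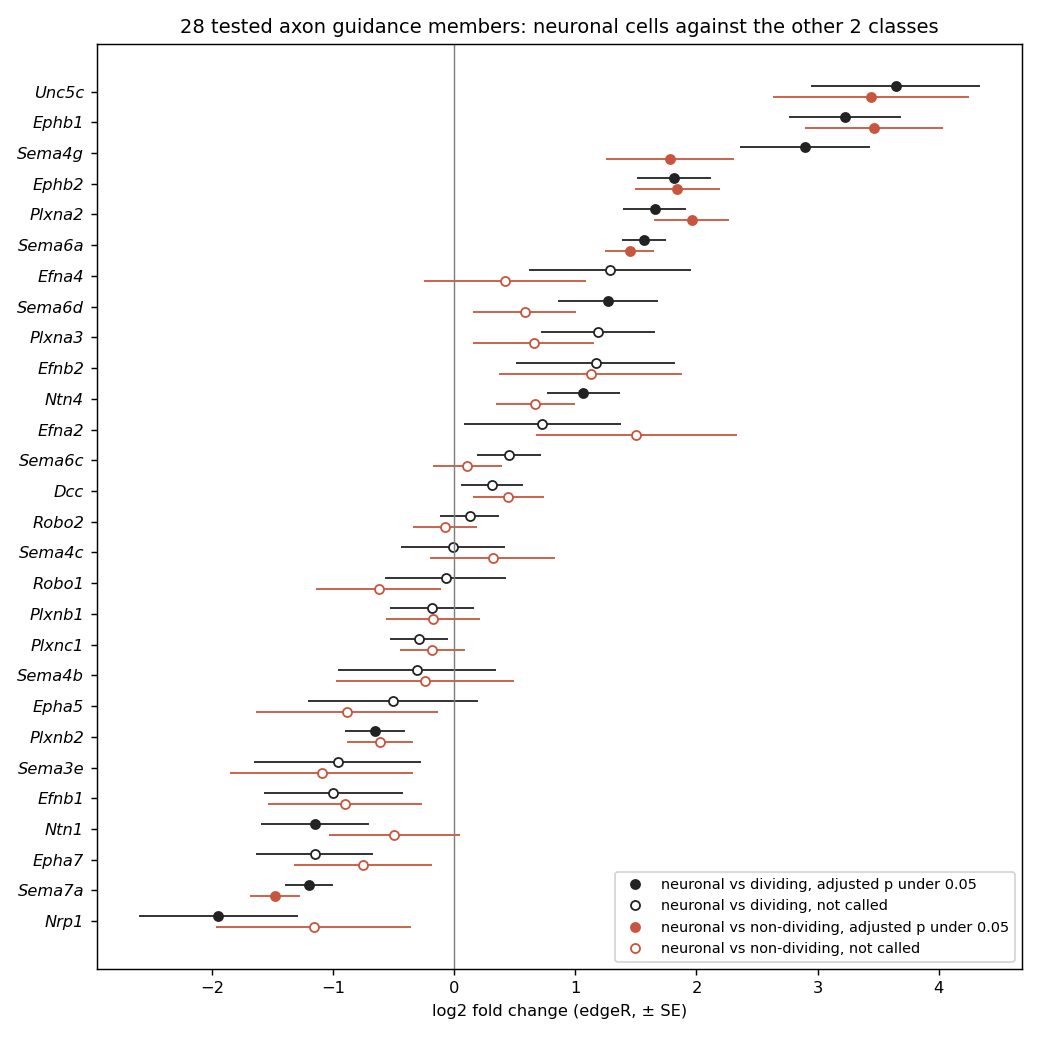
Log2 difference of the 28 tested genes, with the SE as a bar, for neuronal against dividing cells (black) and neuronal against non-dividing cells (red); filled points have an edgeR adjusted p under 0.05. The 7 genes filled in both run from Unc5c at 3.64 to Sema7a at -1.20 against dividing cells.

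Calls differed in how much they depended on the settings. Against dividing cells, Sema6a, Sema7a, Ephb1, Sema4g and Unc5c kept their calls in every alternative in which they were tested, and Plxna2 and Ephb2 lost theirs only in the fit without the tumour block, which called 5 of the 28. Without the block, Ephb1 and Sema7a alone were called against non-dividing cells. In tumours 1 and 2 alone, Sema6a, Sema7a, Plxna2, Ephb1 and Ephb2 were called against dividing cells, and in tumours 3 and 4 alone Sema6a, Sema7a, Plxna2, Ephb2 and Ntn4, with Ephb1 under the limit there. Sema6d, Plxnb2 and Ntn1 were called in neither pair, and Nrp1, Sema4g and Unc5c were under the limit of 30 UMIs in both.

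Summed over all 56 genes, the level was 2477, 2132, 1477 and 1533 CPM in neuronal cells, 1766, 1709, 961 and 1020 in dividing cells and 1675, 1653, 1168 and 1245 in non-dividing cells. Within each tumour the neuronal sum was the highest. The 2 roles had like sums: ligands 930 ± 196 CPM in neuronal and 666 ± 147 in dividing cells, receptors 974 ± 312 and 698 ± 286. Eph receptors summed to 213 ± 87.0 CPM in neuronal and 114 ± 60.5 in dividing cells, and netrin receptors to 166 ± 30.9 and 76.9 ± 36.4. Robo receptors summed to 150 ± 55.2 and 122 ± 68.2 CPM, and neuropilins to 17.7 ± 5.84 and 28.1 ± 8.81. These sums are descriptions and were not tested.

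The guidance genes also differed between whole tumours of this single group. In 16 of the 28 tested genes both tumours 1 and 2 were above both tumours 3 and 4 over all cells, and in 4 they were below. The corresponding shares over all 9156 genes were 31.6% and 40.5%. Sema6c was at 151, 119, 11.3 and 37.5 CPM in tumours 1 to 4. Plxnb1 was at 125, 56.7, 15.1 and 19.9 CPM, Epha5 at 35.2, 16.6, 3.78 and 3.19 CPM, and Plxna2 at 125, 120, 49.2 and 41.5 CPM. The 4 genes below in tumours 1 and 2 were Efna2, Efnb1, Ntn1 and Sema4b. Efnb1, a ligand of B-type Eph receptors, was at 11.7, 8.29, 34.0 and 19.9 CPM. Summed over the 56 genes the whole tumours held 2016, 1835, 1180 and 1201 CPM. Tumours 1 and 2 also held more mitochondrial RNA, which lowers the CPM of other genes. With mitochondrial rows left out the summed level was 1709 ± 570 CPM (SD, n = 4), against 1558 ± 431 with them. The part of library preparation in these differences was not tested, and since the 4 tumours form 1 labelled group no test was made.

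**Figure D3:**
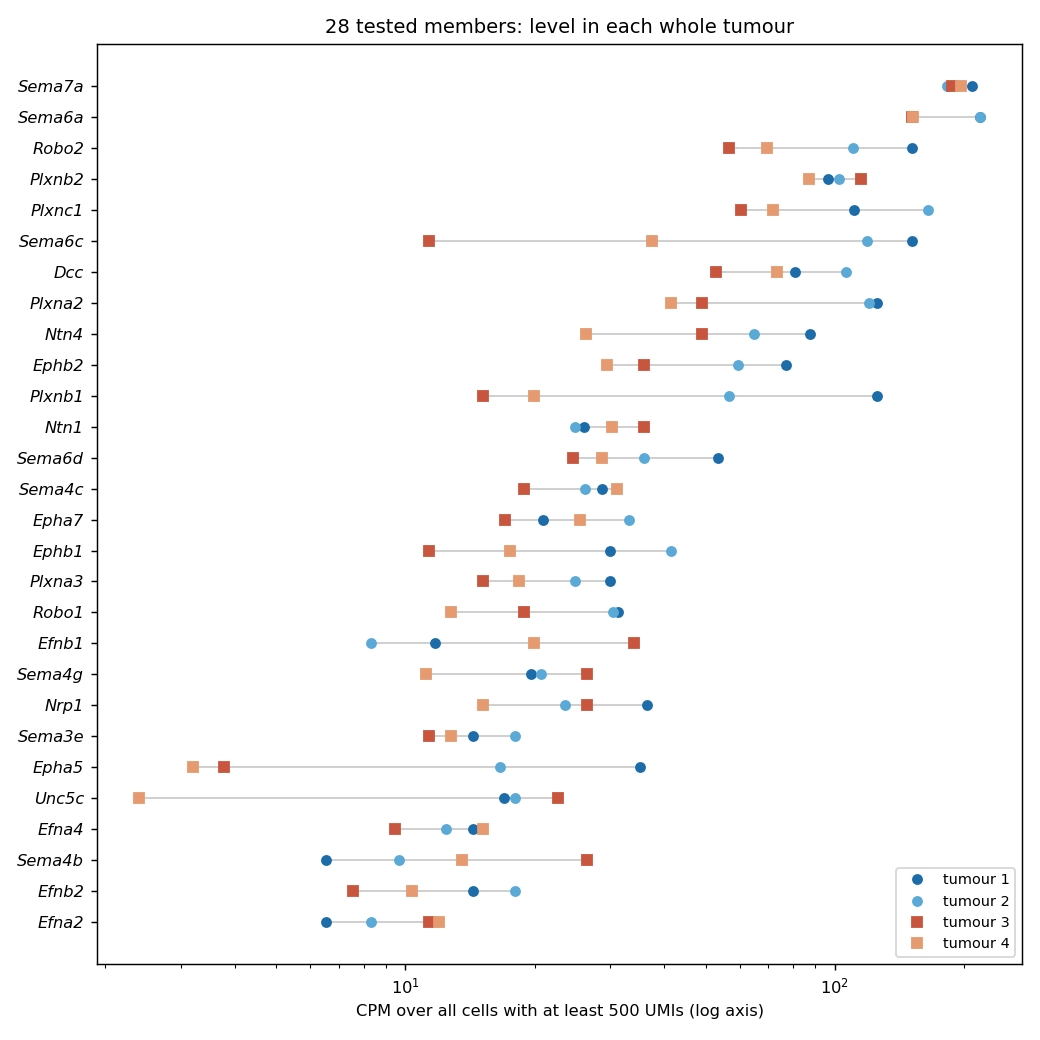
Level of the 28 tested genes over all cells with at least 500 UMIs, in counts per 1000000 UMIs on a log axis, with tumours 1 and 2 as circles and tumours 3 and 4 as squares; genes are ordered by their UMIs in the 3 classes. Sema7a spans 182 to 209 CPM, whereas Sema6c spans 11.3 to 151 CPM.

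The 28 genes under the limit had too few UMIs to test. The semaphorins among them were Sema3a, Sema3c, Sema3d, Sema3g, Sema4a, Sema4d, Sema4f, Sema5a, Sema5b and Sema6b, with 2 to 19 UMIs. The ligands of other families were Efna1, Efna3, Efnb3, Slit2 and Ntn3, with 3 to 23 UMIs. The receptors were Plxna1, Plxnb3, Plxnd1, Nrp2, Epha3, Epha4, Ephb4, Ephb6, Robo3, Robo4, Unc5a, Unc5b and Unc5d, with 0 to 29. Robo3, a Robo family receptor of migrating and commissural neurons, had 6 UMIs in dividing, 2 in non-dividing and 15 in neuronal cells. Unc5b, a netrin receptor, had 2, 3 and 17. Ephb4, a B-type receptor best known from veins, had 14, 3 and 0. The classes held 1346087, 738024 and 805376 UMIs in all. These 3 genes were picked after their counts were seen and are given as counts only.

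Guidance genes were also counted in cells of other types, set apart by markers of their own lists. Counts are pooled over the tumours, with exact 95% Poisson intervals that cover counting error only, and rest on few cells. In 18 endothelial cells with 31669 UMIs, Nrp1 had 17 UMIs, or 537 CPM (313 to 859), against 15.9 CPM over the 3 classes. Robo4, an endothelial member of the Robo family, had 8 UMIs there and 0 of 2889487 in the 3 classes. Sema3c had 10 and Nrp2 7 UMIs in endothelial cells, against 2 and 15 in the 3 classes. Those 18 cells summed to 13073 CPM of the endothelial list and also to 5968 CPM of the mural or fibroblast list. Of the 11 markers of the latter list in the tables, 4 were at 0 in these cells. In the 3 classes that list ranged from 7.86 to 72.0 CPM. The part of mural or fibroblast RNA in these counts was not tested. In 27 microglia or macrophages, Nrp1 had 13 UMIs (325 CPM, 173 to 555) and Plxnb2 10 UMIs (250 CPM, 120 to 459, against 97.9 CPM over the 3 classes). Sema6a had 14 UMIs (247 CPM, 135 to 414) in 39 oligodendrocyte-lineage cells and 7 UMIs (221 CPM, 88.9 to 455) in endothelial cells. Over the 3 classes it was at 183 CPM, with a mean of 351 CPM in neuronal cells. In the oligodendrocyte-lineage cells, Sema5a had 9 UMIs, or 159 CPM (72.6 to 301), against 4.50 CPM over the 3 classes. Ephb1 also had 9 there, against 24.2 CPM over the 3 classes. By class, Ephb1 averaged 69.0 CPM in neuronal, 6.22 in dividing and 6.00 in non-dividing cells. The 39 oligodendrocyte-lineage cells summed to 10176 CPM of the division list. In 12 cells with astrocyte or radial glia markers, Sema6d had 14 UMIs, or 474 CPM (259 to 795), against 28 CPM over the 3 classes. No test was made.

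**Figure D4:**
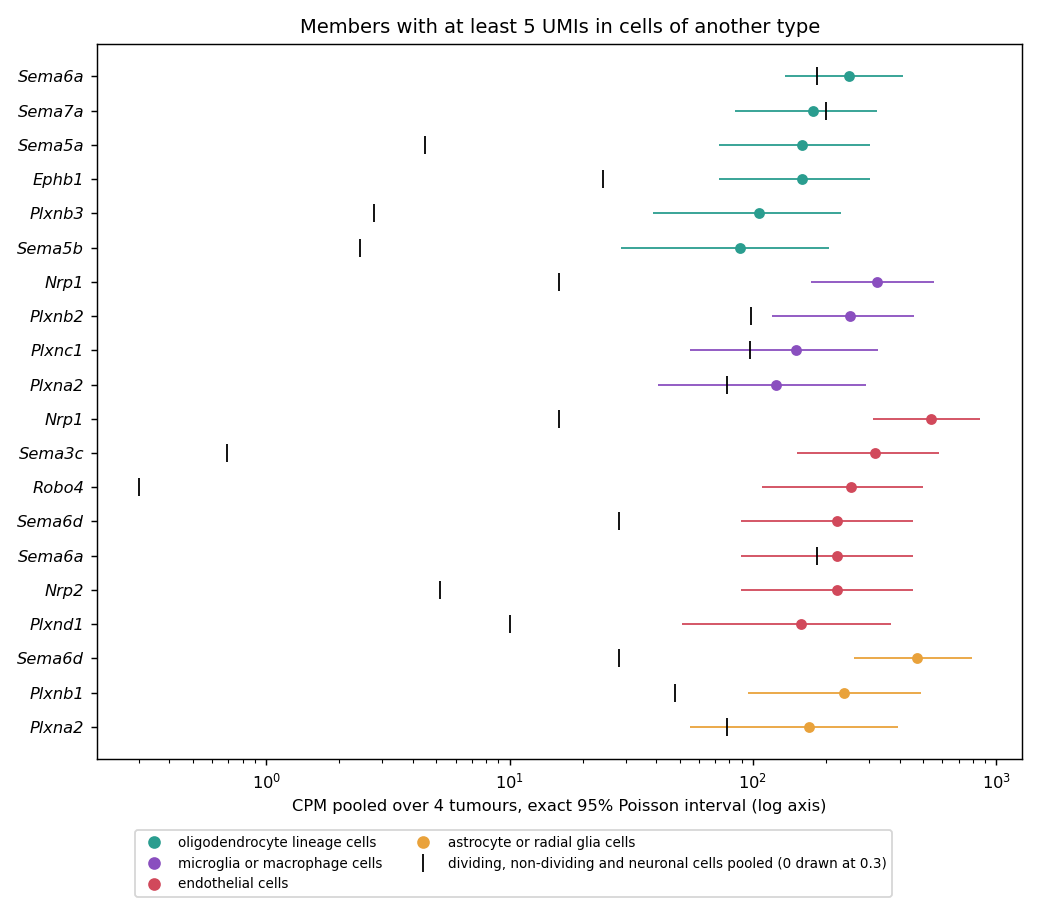
Guidance genes with at least 5 UMIs in cells of another type: points are counts per 1000000 UMIs pooled over the 4 tumours on a log axis, bars are exact 95% Poisson intervals, and vertical ticks are the pooled level of the same gene in dividing, non-dividing and neuronal cells. Robo4 in endothelial cells stands at 253 CPM against 0 of 2889487 UMIs in the 3 classes.

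Beyond ligands and receptors, a list of 59 further guidance genes (intracellular effectors, adhesion co-receptors and other cues), of which 54 were in the tables and 45 could be tested, was read in the same fits. Neuronal cells differed from dividing cells in 20 of the 45, 14 higher and 6 lower, and from non-dividing cells in 12, 9 higher and 3 lower. These are 44.4% and 26.7% of the list, beside 27.5% and 15.6% of all genes. None was called between dividing and non-dividing cells by edgeR, with 5 of 45 at an unadjusted p under 0.05 beside 1346 of all 9156 genes. The median log2 difference of the 45 was 0.12 against dividing and 0.21 against non-dividing cells, beside -0.05 and -0.06 over all genes.

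Higher in neuronal than dividing cells were effectors that link guidance receptors to the cytoskeleton. Dpysl3 and Dpysl5, collapsin response mediator proteins, rose by log2 differences of 3.05 (SE 0.20, edgeR adjusted p = 5.20e-21) and 1.74 (SE 0.31, edgeR adjusted p = 6.35e-06). L1cam, an adhesion co-receptor in semaphorin signalling, averaged 131 CPM in neuronal and 7.89 in dividing cells (log2 difference 3.87, edgeR adjusted p = 2.82e-13). Cdk5r1, the activator of the kinase Cdk5, averaged 350 and 104 CPM (log2 difference 1.72, edgeR adjusted p = 3.11e-12). Srgap3, of the Slit-Robo family of GTPase-activating proteins, and the kinase Pak1 had log2 differences of 3.27 (edgeR adjusted p = 3.42e-08) and 2.26 (edgeR adjusted p = 1.51e-05).

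Extracellular cues and intracellular proteins were among the genes lower in neuronal cells. Draxin, a secreted repellent that binds netrin and Dcc, averaged 529 CPM in neuronal, 1146 in dividing and 1155 in non-dividing cells, lower in 4 of 4 tumours (log2 difference from dividing -1.14, SE 0.13, edgeR adjusted p = 4.51e-11), but was not called without the tumour block (edgeR adjusted p = 0.273). Rgma, a membrane-anchored repellent that binds neogenin, had 3 UMIs in neuronal and 38 in dividing cells, a pooled ratio of 0.132 (exact 95% interval 0.0261 to 0.416), and lost its call in tumours 3 and 4 alone (edgeR adjusted p = 0.0797). Dock1, an exchange factor for Rac, and Mical1, an oxidase of actin downstream of plexins, had log2 differences of -1.98 (edgeR adjusted p = 1.76e-06) and -2.01 (edgeR adjusted p = 4.77e-05). The kinase Abl1 was called at a log2 difference of -1.03 (edgeR adjusted p = 0.0403) and kept that call in 4 of 21 other settings.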

How the data were processed

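The deposited tables hold raw UMI counts, whole numbers for each gene in each cell barcode, which the authors did not normalize, in 1 table per tumour. The submitters' processing notes name STAR and the mm10 build, and the counting software and any barcode filter are not given in the sources used here. A further 6 tables with 11203 cell columns could be matched to no label and were left out.

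Cells were classed, and genes named, by rules set for this work: guidance genes called in any comparison in full, the other tested ones by family, those under the limit by count, and up to 6 further pathway genes per direction. A pathway gene that this rule names is not reported here. The guidance genes, marker lists and pathway list were chosen with earlier results of these data known. The marker threshold of 5 UMIs followed from a rule: it began at 3 and was raised until at least 20% of each tumour's cells were non-dividing. Cells in which 3 or more markers of another type were detected (4 for astrocytes) were set apart. Counts of called genes leave out the class markers. Doublets were kept in the main analysis, and Scrublet, at an expected share of 6%, marked 12 of 3222 cells. No barcode with at least 500 UMIs occurred in 2 tumours.

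Summed counts were fitted with edgeR 4.0.16 (TMM scaling, quasi-likelihood, R 4.3.3), with the tumour as a block because the 3 sums of a tumour come from the same animal. The SE of an edgeR log2 difference was derived from the difference and the F value of its test. Intervals of log2 differences are 95% normal intervals from that SE. They leave out the finite degrees of freedom of the F test and so are somewhat too narrow. Sums of the same tumour deviated together from the class means (lowest correlation 0.33). The labels do not say whether the tumours came from separate litters or runs, so p-values speak for these 4 tumours alone. They cover the spread of class differences from tumour to tumour. Differences in level between tumours are taken out by the block. On simulated counts for neuronal against dividing cells (9009 genes), the fit recovered 98% of 4-fold and 58% of 2-fold rises, 82.6% of 4-fold and 29.8% of 2-fold falls, with 2.26% false calls. Alternatives were other cell filters, thresholds and clustering (scanpy 1.11.5), scalings, gene filters, DESeq2 1.42.0, no block, each tumour left out, and each pair of tumours alone. Promoters came from the RefSeq table of GRCm38.p6, in which 50 of 56 guidance genes had an entry.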

Additional observations from a re-analysis of the deposited data

Results flagged for a closer look

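The highest or lowest of the 4 tumours was set against the others by Dixon's ratio for the 28 tested guidance genes in each of 3 classes, the 3 class shares and the summed level of all guidance genes, and 5 of these 88 groups of 4 values had 1 that stood apart, each of them a gene in a class. Chance alone gives about 1 in 20. Sema7a in non-dividing cells was at 192 CPM in tumour 2 against 286 to 298 in the other tumours. Epha5 in neuronal cells was at 36.3 CPM in tumour 1, from 8 UMIs, against 0 to 3.93 elsewhere. Efna2 in non-dividing cells was at 0 CPM in tumour 1 against 6.73 to 7.54 in the others, values that rest on 4 UMIs over all 4 tumours. Efnb2 in neuronal cells was at 31.8 CPM in tumour 1, from 7 UMIs, against 13.7 to 16.3. Unc5c in non-dividing cells was at 11.9 CPM in tumour 1, from 2 UMIs, and at 0 in the others.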

How the results depend on the processing

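No called guidance gene, and no called pathway gene named in the report, changed direction in any alternative in which it was tested. Of 9156 genes, neuronal and dividing cells differed in 2519, and the count was 1150 with at least 1000 UMIs per cell, 1542 with DESeq2, 715 with no replicate block, 1038 in tumours 1 and 2 alone, and 1544 to 2308 with 1 tumour left out. Of the 2519, 1126 were higher and 1393 lower in neuronal cells, and the balance turned under upper-quartile scaling (1233 and 1203), with library totals (1225 and 1200) and with mitochondrial rows left out (1232 and 1220). The 12 of 28 guidance genes called there became 4 of 18 tested with at least 1000 UMIs, 6 of 11 under edgeR's own expression filter and 5 of 28 with no replicate block. They became 5 of 19 in tumours 1 and 2 alone, 5 of 16 in tumours 3 and 4 alone, and 8 to 10 of 23 to 25 with 1 tumour left out. Over all genes, 1150 of 7269 were called with at least 1000 UMIs, 1872 of 5138 under edgeR's filter and 715 of 9156 with no block. In tumours 1 and 2 alone it was 1038 of 6289, and in tumours 3 and 4 alone 1980 of 7388. Between neuronal and non-dividing cells the counts were 1432 in the main fit, 504 with at least 1000 UMIs, 783 with DESeq2, 138 with no replicate block, 328 in tumours 1 and 2 alone, and 719 to 1376 with 1 tumour left out (922 without tumour 3, 719 without tumour 4). Here too the balance turned, from 680 higher and 752 lower to 774 and 627 with mitochondrial rows left out, 757 and 647 with library totals, 412 and 371 with DESeq2 and 672 and 449 with the threshold 1 UMI lower. The 7 of 28 guidance genes called there became 4 of 18 with at least 1000 UMIs, 4 of 11 under edgeR's own filter and 2 of 28 with no replicate block. They became 4 of 16 in tumours 3 and 4 alone, and 5 to 6 of 23 to 25 with 1 tumour left out. Over all genes, 504 of 7269, 1209 of 5138, 138 of 9156 and 1247 of 7388 were called in the first 4 of these settings. Between dividing and non-dividing cells the 415 genes became 217 with at least 1000 UMIs, 751 with other cell types kept, 216 with DESeq2, 86 with no replicate block, 210 in tumours 1 and 2 alone, and 263 to 382 with 1 tumour left out. Of these, 76.1% were higher in dividing cells, and the share was 64.7% under upper-quartile scaling, 53.1% with other cell types kept, 88.9% with DESeq2 and 98.8% with no replicate block. With other cell types kept, 1 guidance gene was called, Sema6d, lower in dividing cells. The fits with at least 1000 UMIs, with edgeR's filter or with fewer tumours hold fewer cells, genes or samples, and for the other settings the cause was not tested. The mean share of dividing cells was 35.2% and became 48.6% with at least 1000 UMIs and 30.1% with the threshold 2 UMIs higher. Non-dividing cells were 24.7% and became 21.0% with a mitochondrial share of at most 10%, 20.5% with at least 1000 UMIs, 17.0% with the threshold 1 UMI lower, 39.1% with it 2 UMIs higher, 28.2% with scaled in place of thinned counts, and 30.1% from Leiden clusters. Neuronal cells were 29.9% and became 34.9%, 19.6% and 24.6% with the mitochondrial limit, at least 1000 UMIs and the higher threshold. Depth limits the genes with few UMIs: fold changes of Unc5c, Ephb1 and Sema4g rest on 2 to 9 UMIs in the lower class.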
